A study of Saccharomyces cerevisiae with 21 samples.

Results

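The proteasome subunit genes of budding yeast and RPN4, the gene of their common transcription activator, were described in RNA sequencing libraries of glucose-starved and unstressed cells. The set was chosen by gene name and holds 34 of the 6600 yeast features counted. These are 14 genes of the 20S core (the PRE and PUP genes and SCL1), 10 of the 19S base (RPT1 to RPT6, RPN1, RPN2, RPN10 and RPN13), 9 of the 19S lid (the other RPN genes and SEM1) and RPN4. All 34 passed the filter on low counts in every fit, with 311 (RPN12) to 25748 (RPN2) counts in each of 19 libraries.

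The study sequenced poly(A) RNA from 21 libraries of strains in which NAB2, whose product binds poly(A) RNA in the nucleus, was replaced at its own locus by a version tagged with green fluorescent protein. The strain called here the IDR mutant (NAB2-ΔQQQP-ΔRGG, Δ104-263, fused to SV40NLS and yEGFP) lacks residues 104 to 263 of a disordered region, the interface mutant (NAB2-F450A-GFP) carries 1 substitution, and the wild type carries intact NAB2-yEGFP. All 3 strains share the HISMX marker and the BY4742 background, which is MAT alpha with his3Δ1, leu2Δ0, lys2Δ0 and also ura3Δ0. The wild type is therefore itself a tagged strain, and the labels do not say how many clones of each strain were used. Starved cells were kept for 24 h in synthetic medium without glucose after 3 washes, and unstressed cells were taken in mid-log growth in the same medium with 2% glucose. Whole cell libraries covered IDR mutant, interface mutant and wild type, starved and unstressed (n = 2 in each of 6 groups), and nuclear extract libraries covered the 3 starved strains (n = 3 in each of 3 groups). The labels do not say that replicates came from separate cultures, so each p-value measures spread among these libraries alone, and that spread may be technical.

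The proteasome degrades proteins marked with ubiquitin. Its 20S core is a barrel of α and β rings with the proteolytic sites inside. The 19S base (a ring of ATPases with scaffold and ubiquitin receptor subunits) and lid (which holds the deubiquitinase Rpn11) recognise, unfold and feed in substrates. Rpn4 activates the subunit genes through an upstream sequence called PACE (proteasome-associated control element) and is itself destroyed rapidly by the proteasome, which makes a feedback loop. Heat shock factor and Yap1 are known activators of RPN4. In yeast starved of carbon, proteasomes are known to leave the nucleus and collect in cytosolic storage granules.

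The upstream sequences were read from the 500 bases before each start codon in RefSeq assembly R64, whose positions match those of the count files for all 34 genes. The PACE letters GGTGGCAAA, searched on both strands, were found in 27 of the 34 genes: 12 of the core, 8 of the base, 7 of the lid and not RPN4. The same letters were in 107 of 6567 promoters, or 1.63%. The matches lay 76 to 175 bases before the start codon (median 112), 19 on the gene's strand and 8 on the opposite strand, where they read TTTGCCACC. The looser NGTGGCNAA, which contains every PACE match, was found in all 33 subunit genes and in 6.72% of promoters. RPN4 had 2 matches to the heat shock element (GAA, TTC and GAA, each pair 2 bases apart), which was in 1.39% of promoters and in no subunit gene. It had 1 match to the Yap1 element TTACTAA, which was in 11.1% of promoters and in 6 of the 34 genes. Also searched were the stress response element AGGGG, in 34.1% of promoters, and the pleiotropic drug response element TCCGCGGA, in 0.609%. RPN4 had no match to either, and they were in 12 and 0 of the 34 genes. The windows below belong to the genes whose RNA is described most closely, are written 5′ to 3′ on the strand of the gene, and show the matched letters in capitals.
PRE6 (chrXV:255220-255244, plus strand): aagattctTTTGCCACCggaaggga
PRE8 (chrXIII:86843-86867, minus strand): cttattaaGGTGGCAAAattgtccc
PRE9 (chrVII:761225-761249, plus strand): accctgcaGGTGGCAAAaaatttat
RPT4 (chrXV:813804-813828, minus strand): tagtggaaTTTGCCACCgaagggaa
RPN1 (chrVIII:164840-164864, minus strand): tgttttacGGTGGCAAAaggcgagc
RPN2 (chrIX:220803-220827, minus strand): ttattttcGGTGGCAAAactggata
RPN9 (chrIV:1322088-1322112, plus strand): tttcatccGGTGGCAAAagtaagaa
RPN12 (chrVI:252400-252424, plus strand): acacattaTTTGCCACCcattgaaa
SEM1 (chrIV:1202009-1202033, plus strand): gtgctatgGGTGGCGAAcgtggtgg
RPN4 distal heat shock element (chrIV:417036-417064, minus strand): agtgatggTTCTAGAAAGTTCcgtttcgg
RPN4 proximal heat shock element (chrIV:416709-416737, minus strand): caaaagttTTCTAGAATTTTCaagcaatc
The SEM1 window is the looser match, 1 letter away from PACE. PRE5, PUP1, RPN8, RPN10 and RPN13 also had only a looser match. The heat shock elements lay 336 and 9 bases before the RPN4 start codon, on the strand opposite to the gene.

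Depth was 4815254 to 14069868 counts in the 12 whole cell libraries and 6353585 to 23138938 in 7 of the nuclear libraries. The third nuclear replicates of the interface mutant (3981 counts) and of wild type (1079 counts) were too shallow and entered neither the fits nor the levels. MAT alpha genes were present in all 19 libraries (STE3 at 73.2 to 767 CPM, counts scaled to the library total). The deleted markers LEU2, LYS2 and URA3 were at or below 0.623 CPM. HIS3, listed as his3Δ1 in the genotype, held 8.19 to 43.3 CPM. Genes of the other mating type, MAT a, also had counts in all 19 libraries. MFA1 held 0.213 to 12.8 CPM, MFA2 0.213 to 53.3 and STE2 4.72 to 18.97. Why HIS3 and the MAT a genes had counts was not tested. NAB2 had 656 to 9589 counts in every library, but a count over the whole gene does not show the deletion or the substitution and so does not check the strains. The file headers name different sequencing runs for whole cell and nuclear libraries, and cells for nuclear extracts lost their walls to Zymolyase before lysis, so fraction, run and that handling cannot be told apart. The nuclear libraries also held 6 spike-in features, with 56277 to 200633 counts in the 7 kept. Whole cell libraries had none, and spike-in counts entered no fit or level.

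Some libraries stood apart. Unstressed wild type replicate 1 held 34.04% of its counts in 137 ribosomal protein genes, against 20.0% to 21.1% in the other 5 unstressed libraries. Its counts differed from those of replicate 2 with a chi-square per degree of freedom of 355, against 3.08 to 45.2 for the other whole cell pairs. The nuclear mutant libraries did not separate by label. A score was taken over 56 genes chosen by their difference of over 2 (log2) between IDR and interface mutant in starved whole cells. It is the mean log2 difference from wild type of the same fraction, signed so that the IDR mutant is high. It was 2.07 and 2.14 in whole cell IDR mutant libraries and -0.04 and -0.13 in whole cell interface mutant libraries. It was 0.32, -0.16 and 1.17 in the libraries labelled nuclear IDR mutant and 1.17 and 0.20 in those labelled nuclear interface mutant. In whole cells the score did not tell the interface mutant from wild type (-0.06 and 0.06). Nuclear wild type libraries scored -0.09 and 0.09. By this score alone, nuclear IDR mutant replicates 1 and 2 and nuclear interface mutant replicate 1 lay nearer the whole cell libraries of the other mutant. For the 2 IDR mutant replicates that is also nearer wild type. Below, nearer the other mutant has this sense only, and an exchange of labels was not tested for the 3 libraries. Subunit medians in nuclear extracts, and the values of the genes described most closely there, are also given without these 3 libraries. That leaves 1 nuclear library in each mutant, with its spread taken from the other groups. Those values are therefore given as effect sizes only and do not rest on replicates of the mutants.

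Levels below are CPM scaled by edgeR's TMM factors over the 19 libraries, and levels compared between genes are RPKM, the CPM per kilobase of gene, from the same values. They are relative to all poly(A) RNA counted, so fewer cells with an RNA and less of that RNA per cell cannot be told apart. In unstressed wild type replicate 2, the median subunit stood at 415 RPKM in the core, 417 in the base and 407 in the lid. The range in that library ran from 179.6 RPKM for PUP1, the trypsin-like β2 subunit, to 2201 RPKM for SEM1, the smallest lid subunit. In starved wild type the class medians were 378 and 395 RPKM (core), 440.2 and 443 (base) and 347 and 336 (lid). The SD of log2 RPKM over the 33 subunits in starved whole cells was 0.642 to 0.842, against 0.599 to 0.738 in 5 unstressed libraries, ranges that overlap, and 1.26 in unstressed wild type replicate 1.

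RPN4 (YDL020C) showed the largest rise of the set under starvation in each strain. Starved whole cells held 1587 and 1525 CPM in the IDR mutant, 1087 and 1188 in interface mutant cells and 856 and 942 in wild type. Unstressed whole cells held 214 and 219.8 CPM in the IDR mutant, 174 and 174 in interface mutant cells and 178 and 182 in wild type. Starved and unstressed libraries did not overlap, and among starved whole cells the strains ranked IDR mutant, interface mutant, wild type without overlap. RPN4 rose by 2.86 ± 0.13 on the log2 scale (log2 fold change ± standard error) in the IDR mutant, 7.25-fold, with an edgeR quasi-likelihood adjusted p of 1.55e-07. The rise was 2.72 ± 0.13 (6.58-fold, edgeR adjusted p = 2.48e-07) in the interface mutant and 2.33 ± 0.13 (5.04-fold, edgeR adjusted p = 6.93e-07) in wild type. Starved IDR mutant exceeded starved wild type by 0.79 ± 0.12 (edgeR adjusted p = 0.0017), and both this difference and the 3 rises passed the threshold with any 1 library of the compared groups left out. The IDR mutant also exceeded the interface mutant by 0.46 ± 0.12 (edgeR adjusted p = 0.0281), a call that was lost when any of the 4 libraries was left out. The interface mutant stood 0.34 ± 0.12 from wild type (edgeR adjusted p = 0.325), which did not pass.

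The rise of RPN4 was also compared between strains. The log2 change of the IDR mutant minus that of wild type was 0.52 ± 0.17 (edgeR adjusted p = 0.0752), which did not pass. It passed with either unstressed wild type library left out (edgeR adjusted p = 0.015 without replicate 1 and 0.0105 without replicate 2). In nuclear extracts RPN4 held 1028, 1261 and 1740.4 CPM in the IDR mutant, 1500.1 and 1411 in interface mutant cells and 924 and 1204 in wild type. The nuclear and whole cell ranges overlapped in the IDR mutant and wild type, and in the interface mutant both nuclear libraries lay above both whole cell ones. Nuclear extract over whole cell gave -0.21 ± 0.24 in the IDR mutant, 0.37 ± 0.27 in the interface mutant and 0.25 ± 0.27 in wild type, none of which passed (edgeR adjusted p = 0.604, 0.298 and 0.504). Without the 3 nuclear libraries that lay nearer the other mutant, which leaves 1 in each mutant, the values were 0.17, 0.32 and 0.24 in the same strains.

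**Figure D1:**
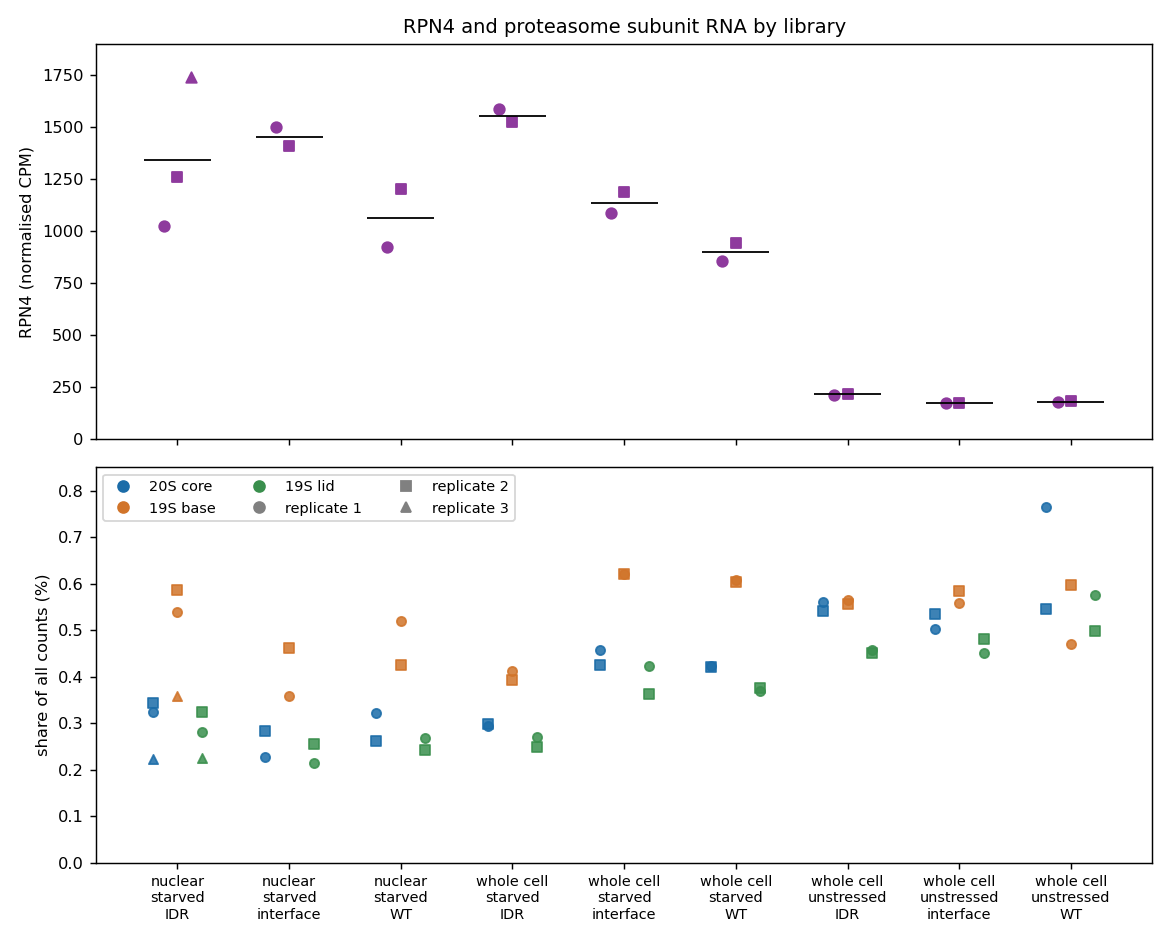
The upper panel plots RPN4 in normalised CPM for each library (symbols mark replicates, lines the group mean), and the lower panel plots the share of all counts (%) taken by the 14 core, 10 base and 9 lid genes. RPN4 lies between 856 and 1740.4 CPM in starved libraries and between 174 and 219.8 in unstressed ones. The core share of unstressed wild type replicate 1 (0.764%) stands above every other library.

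The subunits did not follow RPN4 as a group. In the starved whole cells the 33 subunit genes together took 0.977% and 0.939% of counts in the IDR mutant, 1.5002% and 1.41% in interface mutant cells and 1.40% in both wild type libraries, against 1.51% to 1.81% in unstressed libraries. Ribosomal protein genes fell to 3.90% to 6.43% of counts in starved whole cells, against 20.0% to 34.04% unstressed, and the part of this shift in the changes of share below was not tested. Among the 34 genes, starvation raised 3 and lowered 12 in the IDR mutant, raised 13 and lowered 4 in the interface mutant, and raised 8 and lowered 12 in wild type. Of all genes tested, 33% rose and 34.3% fell in the IDR mutant, 29.7% rose and 30.3% fell in the interface mutant, and 31.7% rose and 34.5% fell in wild type. In each strain the share of the 34 genes that passed in either direction was below that of all genes, which was 67.3% in the IDR mutant, 60% in the interface mutant and 66.2% in wild type. The median log2 change of the 33 subunits was -0.37 in the IDR mutant, 0.32 in the interface mutant and -0.35 in wild type, beside -0.05, -0.05 and -0.05 over all genes.

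By position in the particle, the base stood highest in every strain. Median log2 changes for core, base and lid were -0.41, -0.18 and -0.41 in the IDR mutant. They were 0.16, 0.38 and -0.04 in the interface mutant and -0.56, -0.09 and -0.70 in wild type. Within each class the members ranged widely, in wild type from -2.42 (PRE9) to 0.59 (PRE8) in the core, from -0.58 (RPN13) to 1.39 (RPN1) in the base and from -1.43 (RPN7) to 0.55 (RPN11) in the lid. Of the 34 genes, 3 rose in all 3 strains (RPN4, PRE8 and RPN2), 3 fell in all 3 (PRE6, RPN12 and SEM1) and 6 passed in none (PRE3, SCL1, RPN10, RPN13, RPN5 and RPN8). Of the 5853 genes tested, 22.2% rose in all 3 strains, 22.7% fell in all 3 and 15.5% passed in none.

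PRE6 (YOL038W), the α4 subunit that can replace α3 in an alternative core, fell in every strain. It had 180.1 and 181 CPM in starved IDR mutant cells against 625 and 613 unstressed, 228 and 226 against 526 and 539.9 in the interface mutant, and 290.4 and 305 against 565 and 562 in wild type. No starved library reached an unstressed one, and the log2 changes were -1.76 ± 0.12 in the IDR mutant, -1.22 ± 0.11 in the interface mutant and -0.91 ± 0.11 in wild type (edgeR adjusted p = 1.33e-06, 1.67e-05 and 0.000107). RPN12 (YFR052W), a lid subunit that joins last in lid assembly, had 101 and 83.3 CPM starved against 176 and 183 unstressed in the IDR mutant, 68.7 and 83 against 194 and 168 in the interface mutant and 74.6 and 66.2 against 130.1 and 188 in wild type. Its groups did not overlap either, with changes of -0.94 ± 0.20, -1.24 ± 0.21 and -1.16 ± 0.21 (edgeR adjusted p = 0.00268, 0.000656 and 0.000893). SEM1 fell by 1.12 ± 0.37 in the IDR mutant, 1.01 ± 0.37 in the interface mutant and 1.42 ± 0.37 in wild type on the log2 scale (edgeR adjusted p = 0.0228, 0.0378 and 0.00762). The calls in the mutants were each lost in 3 of 4 fits that left out 1 library.

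The scaffold subunits of the base had more RNA in starved cells. RPN2 (YIL075C), which links base and lid, had 835 and 785 CPM starved against 507 and 539 unstressed in the IDR mutant, 934 and 749 against 509 and 510.2 in the interface mutant and 886 and 871 against 430.0 and 531 in wild type. All starved libraries were above all unstressed ones, by 0.65 ± 0.15, 0.73 ± 0.15 and 0.88 ± 0.16 on the log2 scale (edgeR adjusted p = 0.00464, 0.00277 and 0.000844). RPN1 (YHR027C), which docks shuttle factors and the deubiquitinase Ubp6, had 984 and 1023 CPM starved against 706 and 698 unstressed in the IDR mutant, 1369 and 1671 against 675 and 661 in the interface mutant and 1307 and 1334 against 358 and 661 in wild type. Starved and unstressed libraries did not overlap. RPN1 rose in the interface mutant (1.19 ± 0.25, edgeR adjusted p = 0.00244) and wild type (1.39 ± 0.25, edgeR adjusted p = 0.00095), and the IDR mutant value of 0.53 ± 0.24 did not pass (edgeR adjusted p = 0.0804). RPN11, the deubiquitinase of the lid, rose by 0.80 ± 0.12 in the interface mutant and 0.55 ± 0.12 in wild type on the log2 scale (edgeR adjusted p = 0.000445 and 0.00336). It stood at 0.20 ± 0.12 in the IDR mutant, which did not pass (edgeR adjusted p = 0.183).

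In the core, PRE8 (YML092C, the α2 subunit) rose in all 3 strains, with 250.5 and 264 CPM starved against 189.5 and 202 unstressed in the IDR mutant, 241 and 288 against 161 and 152 in the interface mutant and 230.5 and 207 against 149.8 and 143 in wild type. The groups did not overlap within a strain. The changes were 0.41 ± 0.14, 0.77 ± 0.14 and 0.59 ± 0.14 (edgeR adjusted p = 0.0246, 0.0011 and 0.00411). The IDR mutant call was lost with any 1 library of that strain left out. The catalytic subunits differed among themselves. PRE2 (β5, chymotrypsin-like) rose by 1.30 ± 0.31 in the interface mutant (edgeR adjusted p = 0.0054). PUP1 (β2, trypsin-like) fell by 1.23 ± 0.19 in IDR mutant cells and by 0.92 ± 0.19 in interface mutant cells (edgeR adjusted p = 0.000315 and 0.00209). PRE3 (β1, caspase-like) passed in no strain, with -0.41 ± 0.37 in the IDR mutant, 0.61 ± 0.37 in the interface mutant and -0.77 ± 0.37 in wild type. RPT4 (YOR259C), a base ATPase, was the only gene of the 34 to rise in some strains (0.62 ± 0.12 in the interface mutant, 0.35 ± 0.12 in wild type) and fall in another (-0.37 ± 0.12 in the IDR mutant). The edgeR adjusted p values for RPT4 were 0.0021, 0.0307 and 0.0228, of which the wild type and IDR mutant calls were lost in 2 and 3 of 4 fits with 1 library left out.

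The other members followed no common direction. Among the remaining α subunits, PRE10 (α7) fell in the IDR mutant (-0.81 ± 0.20) and wild type (-0.93 ± 0.20) and stood at -0.40 ± 0.20 in the interface mutant, PRE5 (α6) fell in wild type (-1.10 ± 0.29), and PUP2 (α5) rose in the interface mutant (0.57 ± 0.18). SCL1 (α1) had 271 and 289 CPM starved against 273 and 263 unstressed in the IDR mutant, 296 and 375 against 263 and 260.0 in the interface mutant and 285 and 297 against 189.8 and 269 in wild type, and did not pass. Among the β subunits without a catalytic site, PRE1 (β4) rose in the interface mutant (0.45 ± 0.13) and wild type (0.36 ± 0.13), PRE7 (β6) rose in the interface mutant (0.77 ± 0.28) and PRE4 (β7) fell in wild type (-1.02 ± 0.25).

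Of the other base ATPases, RPT1 fell in the IDR mutant (-0.91 ± 0.12) and wild type (-0.47 ± 0.12), and RPT2 (-0.81 ± 0.17) and RPT5 (-0.47 ± 0.15) fell in the IDR mutant. RPT3 (0.44 ± 0.13) and RPT6 (0.67 ± 0.17) rose in the interface mutant. The ubiquitin receptor RPN10 stood at -0.15 ± 0.16, 0.09 ± 0.16 and -0.12 ± 0.16 in the IDR mutant, the interface mutant and wild type. In the lid, RPN7 had 183 and 175 CPM starved against 478 and 484 unstressed in the IDR mutant, 366 and 299.8 against 447 and 488 in the interface mutant and 289 and 302 against 1087 and 525 in wild type. Its libraries did not overlap within a strain, and it fell in the IDR mutant (-1.41 ± 0.28) and wild type (-1.43 ± 0.28). RPN9 (-1.32 ± 0.29) and RPN3 (-0.70 ± 0.13) fell in wild type, and RPN6, a scaffold of the lid, rose in the interface mutant (0.38 ± 0.13) and wild type (0.37 ± 0.13). RPN8, the partner of Rpn11, stood at -0.18 ± 0.30, 0.60 ± 0.30 and -0.63 ± 0.30 and did not pass. With 1 library left out, the calls of RPT5 in the IDR mutant and of PRE7 and RPN6 in the interface mutant were lost each time.

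**Figure D2:**
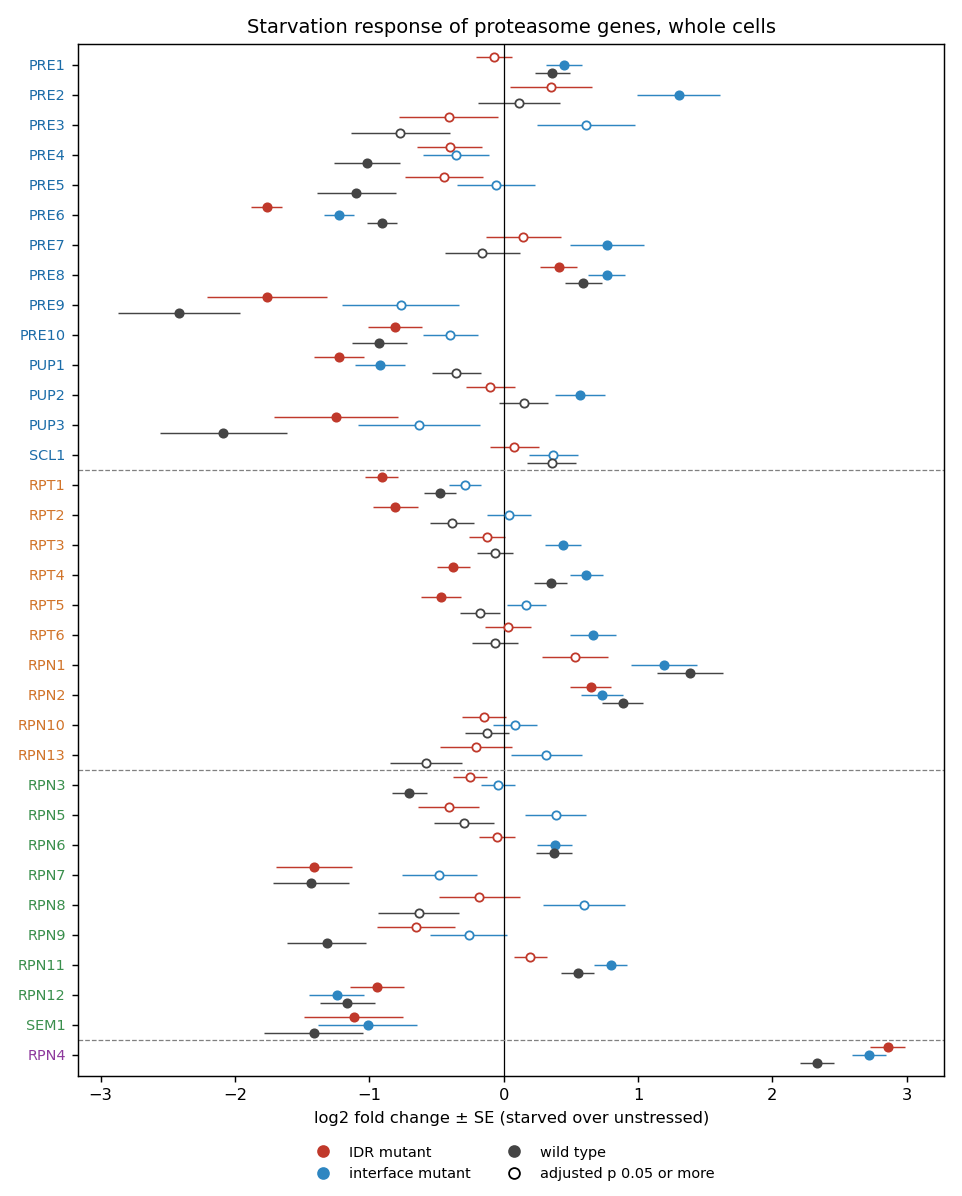
Log2 fold change (starved over unstressed, whole cells) of each of the 34 genes in the IDR mutant, the interface mutant and wild type, with the standard error as a bar and open points where the edgeR adjusted p was 0.05 or more. Gene names are coloured by core, base, lid and RPN4. RPN4 lies at 2.33 to 2.86, apart from all subunits, which lie between -2.42 and 1.39.

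The wild type response depended on the unstressed wild type library that stood apart. In its replicate 1 the 33 subunits stood at a median log2 ratio of 0.49 to replicate 2, beside 0.03 over 5573 genes. The SD of this ratio was 0.68 over the subunits and 0.82 over the 5573 genes, so the subunits did not spread more widely than genes at large. PUP3, the β3 subunit, had 1709 CPM in replicate 1 and 466 in replicate 2, PRE9 (YGR135W), the α3 subunit, had 2082 and 612, and RPN1 had 358 and 661. The ratio fell with the length of the gene, with a Pearson correlation with log10 length of -0.47 over the 33 subunits and -0.50 over the 5573 genes, given as a description of these libraries. Without replicate 1, and with the lone unstressed wild type library taken to vary like the other groups, starvation raised 9 subunits and lowered 13 in wild type (23 of 34 genes with RPN4), beside 33.1% higher and 35.1% lower over all genes. The median of the 33 subunits was then 0.02, and that of core, base and lid -0.15, 0.10 and -0.59. Without replicate 2 instead, 30 of the 34 genes passed, 8 higher and 22 lower, beside 37.8% higher and 39.4% lower over all genes.

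PRE9 and PUP3, whose wild type changes of -2.42 ± 0.46 and -2.09 ± 0.47 (log2) were the lowest of the set, were the genes most moved by this library. PRE9 had 156 and 155 CPM starved against 566 and 499 unstressed in the IDR mutant, 348 and 252 against 479.7 and 549 in the interface mutant and 253 and 247 against 2082 and 612 in wild type. Without unstressed wild type replicate 1 its wild type change was -1.28 ± 0.17 (edgeR adjusted p = 8.06e-05), and that of PUP3 was -0.87 ± 0.17 (edgeR adjusted p = 0.000923). PRE6, RPN12 and RPN2 stood at -0.91, -1.41 and 0.74 in that fit and RPN4 at 2.31. PRE2, PRE7 and PUP2, which did not pass in wild type with all libraries, passed as rises in that fit (0.83, 0.48 and 0.43).

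**Figure D3:**
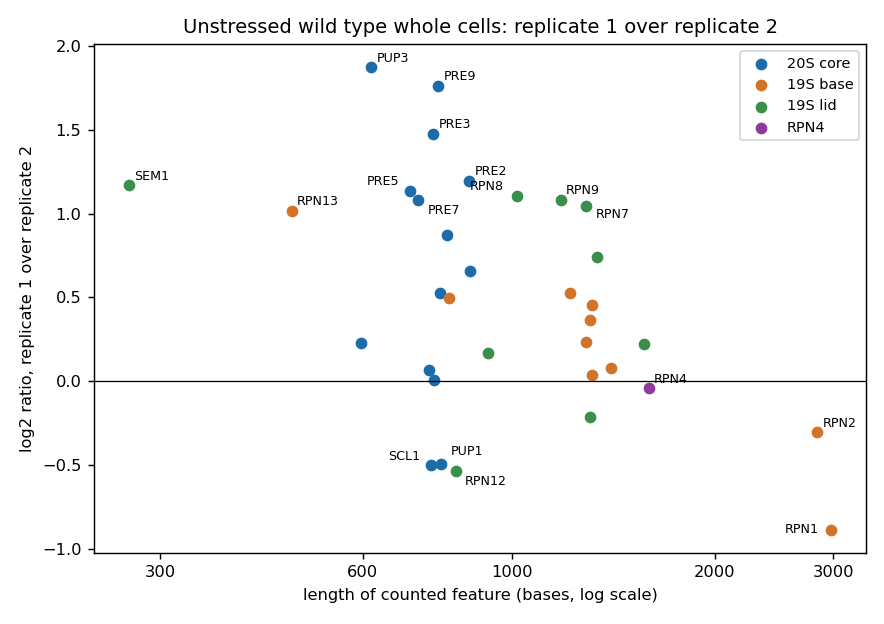
Log2 ratio of normalised CPM, replicate 1 over replicate 2, of unstressed wild type whole cells (vertical axis) against the length of the counted gene in bases on a log axis (horizontal axis), 1 point for each of the 34 genes, coloured by class. Among the short genes PUP3 and PRE9 lie high, while PUP1, SCL1 and RPN12, of about the length of PRE9, lie below 0. The long base genes RPN1 and RPN2 also lie below 0 and RPN4 lies near 0.

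The response of the IDR mutant differed from that of wild type for 2 of the 34 genes, both lower, beside 5.5% of all genes lower and 6.24% higher. The log2 change of the IDR mutant minus that of wild type was -0.86 ± 0.16 for PRE6 (edgeR adjusted p = 0.0121) and -0.72 ± 0.17 for RPT4 (edgeR adjusted p = 0.0309). Both calls were lost with any of the 6 libraries other than unstressed wild type left out. Among the rest the values ran from -0.87 (PUP1) to 0.84 (PUP3) in the core, -0.86 (RPN1) to 0.37 (RPN13) in the base and -0.43 (RPN6) to 0.66 (RPN9) in the lid. Without unstressed wild type replicate 1, 12 of the 34 genes passed, with RPN4 higher and 11 subunits lower (4 of the core, 5 of the base, 2 of the lid), beside 11.5% higher and 13.8% lower over all genes. RPT4 was then -0.74 ± 0.14 and RPT2 -0.66 ± 0.15 (edgeR adjusted p = 0.00575 and 0.012), and the median of the 33 subunits was -0.38. Without replicate 2, 13 genes were higher and 7 lower, beside 28.7% higher and 25.7% lower over all genes. The response of the interface mutant differed from that of wild type for 0 of 34 genes by edgeR, 13 at an unadjusted p under 0.05 and 1 by DESeq2. Of all genes, 0.0171% passed by edgeR, 19.4% at the unadjusted p and 2.5% by DESeq2. Of the 34, 24 passed without unstressed wild type replicate 2, beside 55.5% of all genes.

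In starved whole cells the IDR mutant held less RNA of several subunits than the other strains, base ATPases among them. IDR mutant over wild type, 7 subunits were lower and RPN4 was higher, beside 13.3% of all genes lower and 15.9% higher (29.2% in either direction). Of the 33 subunits 28 had a negative value, with a median of -0.33 beside -0.0025 over all genes, and all 10 base genes were below 0. RPT4 had 384 and 343 CPM in the IDR mutant, 759.9 and 695 in interface mutant cells and 643 and 629 in wild type. RPT1 had 384 and 351 CPM in the IDR mutant, 629 and 637 in interface mutant cells and 595 and 573 in wild type. RPT2 had 359.9 and 326 CPM in the IDR mutant, 653 and 601 in interface mutant cells and 581 and 578 in wild type. In each of these ATPase genes both IDR mutant libraries lay below all 4 others. IDR mutant over wild type, the log2 value was -0.80 ± 0.12 for RPT4, -0.75 ± 0.17 for RPT2 and -0.66 ± 0.12 for RPT1 (edgeR adjusted p = 0.00182, 0.00929 and 0.00381). PRE6 (-0.72 ± 0.11), PUP2 (-0.64 ± 0.18), RPT5 (-0.48 ± 0.15) and RPN5 (-0.75 ± 0.23) were the other falls. With any 1 of the 4 libraries left out, RPN4, PRE6, RPT1 and RPT4 still passed, the RPT2 call was lost in 3 of the 4 fits, and the calls of PUP2, RPT5 and RPN5 were lost each time. RPT1 shares 93 bases with YKL145W-A on the same strand, where the counting command in the file headers leaves reads unassigned.

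IDR mutant over interface mutant, all 6 ATPase genes, PUP2, RPN5 and RPN11 were lower and RPN4 higher, beside 9.86% of all genes lower and 10.4% higher (20.2% in either direction). The medians were -0.36 for the core, -0.60 for the base and -0.44 for the lid, beside 0.02 over all genes, with 31 of 33 subunits below 0. RPT4 had the lowest value, -0.996 ± 0.12 (edgeR adjusted p = 0.0019), and was the only one of the 10 to pass with any 1 library left out. The 2 comparisons share the starved IDR mutant libraries, so they are not separate evidence. Outside the ATPases the large core values, such as -0.96 ± 0.37 for PRE3 and -0.94 ± 0.44 for PRE9, had errors too wide to pass (edgeR adjusted p = 0.101 and 0.165). These fits share an estimate of the spread that includes unstressed wild type replicate 1. Fitted on the compared groups alone, IDR mutant over wild type called 26 of the 34 genes (5 higher, 21 lower), beside 31.1% of all genes higher and 31.7% lower, and IDR mutant over interface mutant called 19 (1 higher, 18 lower), beside 12.7% higher and 15.4% lower. Interface mutant over wild type called 0 by edgeR, 3 at an unadjusted p under 0.05 and 3 by DESeq2. Of all genes, 0.478% passed by edgeR (0.41% higher and 0.0683% lower), 10.1% at the unadjusted p and 3.53% by DESeq2. Its subunit values ran from -0.42 (SEM1) to 0.53 (RPN3) with a median of 0.16.

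**Figure D4:**
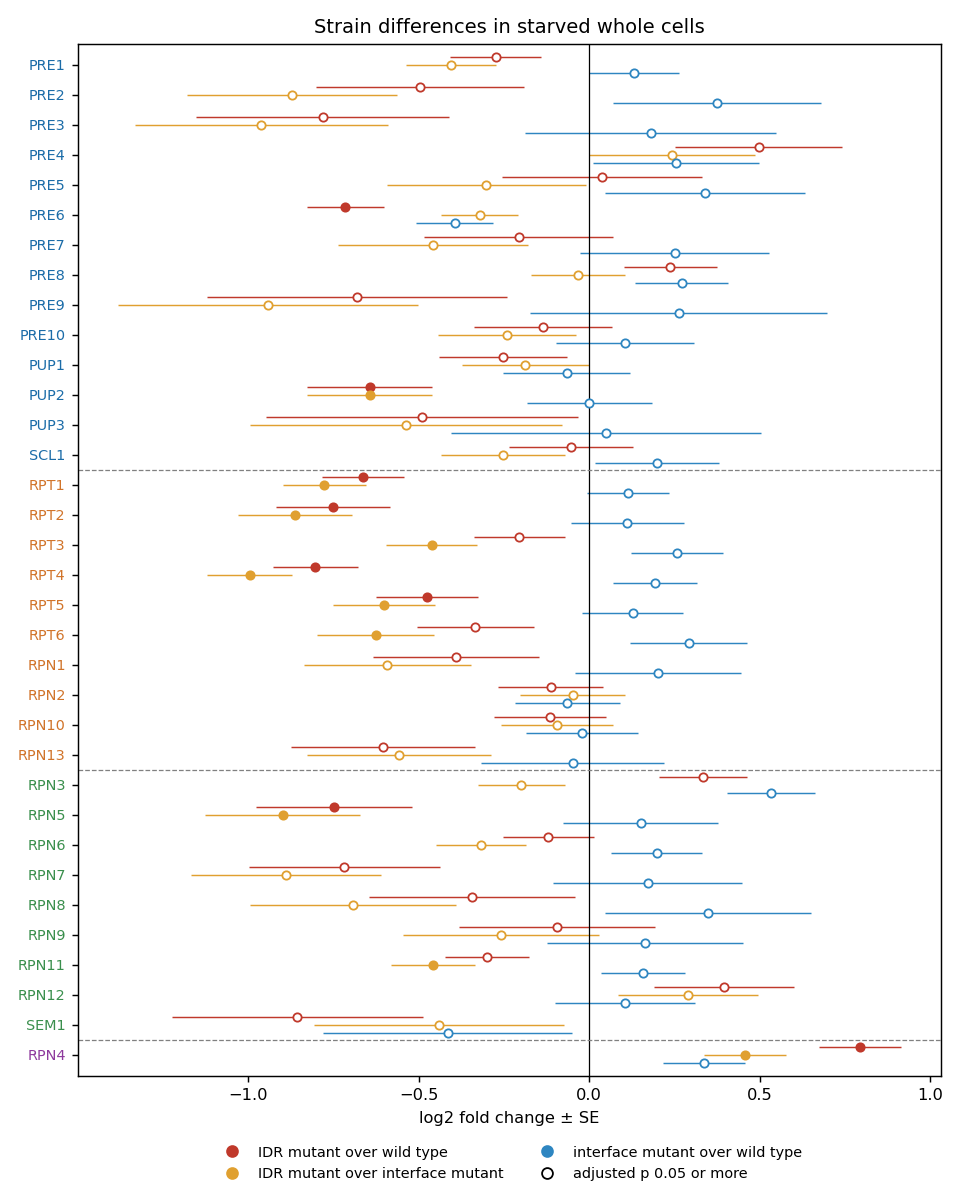
Log2 fold change ± standard error of each of the 34 genes in starved whole cells for IDR mutant over wild type, IDR mutant over interface mutant and interface mutant over wild type, with open points where the edgeR adjusted p was 0.05 or more. The 6 ATPase genes lie left of 0 in both IDR mutant comparisons, between -0.996 and -0.21, while RPN4 lies right of 0 in all 3.

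No gene of the 34 passed between strains in unstressed whole cells. IDR mutant over wild type called 0 of the 34 genes by edgeR, 14 at an unadjusted p under 0.05 and 8 by DESeq2. Of all genes, 1.67% passed by edgeR (1.13% higher and 0.547% lower), 36.2% at the unadjusted p and 22.8% by DESeq2. Interface mutant over wild type called 0 by edgeR, 14 at an unadjusted p under 0.05 and 5 by DESeq2. Of all genes, 0% passed by edgeR, 24.3% at the unadjusted p and, of the 1325 genes for which it gave an adjusted p, 9.28% by DESeq2. Without unstressed wild type replicate 1 both counts stayed at 0. The subunit values then lay between -0.46 and 0.45 for the IDR mutant and between -0.35 and 0.28 for the interface mutant. Without replicate 2 the counts were 27 and 25, beside 64.6% and 62% of all genes. IDR mutant over interface mutant, which uses neither wild type library, called 0 by edgeR, 2 at an unadjusted p under 0.05 and 0 by DESeq2, beside 0.188%, 6.51% and 1.87% of all genes, with subunit values between -0.34 (SEM1) and 0.32 (PRE8).

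Nuclear extracts of starved cells held less subunit RNA, relative to all poly(A) RNA, than whole cells in the interface mutant and wild type. Nuclear extract over whole cell, 2 of the 34 genes were lower in the IDR mutant, 24 in the interface mutant and 20 in wild type, and 0 were higher in any strain. Of all genes, 4.98% were lower and 4.63% higher in the IDR mutant (9.61% in either direction), 17% lower and 17.3% higher in the interface mutant, and 14% lower and 17% higher in wild type. The subunit medians were -0.12 in the IDR mutant, -0.78 in the interface mutant and -0.69 in wild type, beside 0.01, 0.04 and 0.02 over all genes. Core, base and lid had similar medians, at -0.75, -0.80 and -0.62 in the interface mutant and -0.72, -0.66 and -0.87 in wild type. Of the genes lower, 19 were shared by wild type and the interface mutant only and 1, RPN9, by all 3 strains. The IDR mutant calls of RPN9 and RPN12 were lost in 3 and 4 of 5 fits that left out 1 library. Of the 5944 genes tested, 9.61% were lower in wild type and the interface mutant only and 1.9% in all 3. The mature poly(A) RNA of most genes is known to be mainly cytoplasmic, and the extracts were enriched for nuclei by a sucrose gradient, but their purity was not given.

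RPN9 (YDR427W), a lid subunit, had 137, 148 and 109 CPM in nuclear extracts against 242 and 238 in whole cells of the IDR mutant, 133 and 92.8 against 314 and 263 in the interface mutant and 107 and 92.6 against 246 and 267 in wild type. Within each strain the fractions did not overlap, and the values were -0.86 ± 0.20, -1.33 ± 0.22 and -1.36 ± 0.22 (edgeR adjusted p = 0.0259, 0.00258 and 0.00255). Without the 3 nuclear libraries nearer the other mutant, which leaves 1 in each mutant, they were -1.13, -1.63 and -1.36. PRE3 (YJL001W), the β1 catalytic subunit and the only gene of the 34 with an intron, had 156, 199 and 113 CPM against 173 and 195 in the IDR mutant, 113 and 148 against 393 and 327 in the interface mutant and 140.0 and 135 against 323 and 311 in wild type. Its libraries overlapped between fractions in the IDR mutant only, and the values were -1.45 ± 0.25 in the interface mutant and -1.20 ± 0.25 in wild type (edgeR adjusted p = 0.00318 and 0.00647). The IDR mutant value of -0.24 ± 0.23 (edgeR adjusted p = 0.518) rests on the libraries nearer the other mutant. Without all 3 of them it was -0.70, with the interface mutant at -1.28. RPN13, a ubiquitin receptor of the base, had 144 and 138 CPM against 316 and 281 in the interface mutant and 150.1 and 145 against 305 and 310.5 in wild type. The fractions did not overlap, and the values were -1.06 ± 0.17 and -1.06 ± 0.17 (edgeR adjusted p = 0.0021 and 0.00216), and -1.10 in the interface mutant without those libraries.

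Not every subunit RNA was low in the extracts. RPN2 stood at 0.07 ± 0.23 in the interface mutant and -0.03 ± 0.23 in wild type. RPN10, the other ubiquitin receptor, stood at 0.10 ± 0.19 and -0.04 ± 0.19, and PRE4, the β7 subunit, at 0.23 ± 0.17 and 0.21 ± 0.18. None of these passed. In wild type RPN9, RPN13, RPN5 and PUP3 passed with any 1 library left out, and the count of genes called ran from 4 without nuclear replicate 2 to 16 without nuclear replicate 1, beside 2.92% and 11.3% of all genes lower. In the interface mutant it ran from 14 without nuclear replicate 1 to 19 without nuclear replicate 2, beside 12.5% and 11.7%. Without the 3 nuclear libraries nearer the other mutant, the subunit medians were -0.40 in the IDR mutant, -0.73 in the interface mutant and -0.70 in wild type. Each mutant then had 1 nuclear library, so counts of genes called are not given for that fit. Keeping the shallow libraries left 13 genes lower in wild type, beside 12.2% of all genes.

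**Figure D5:**
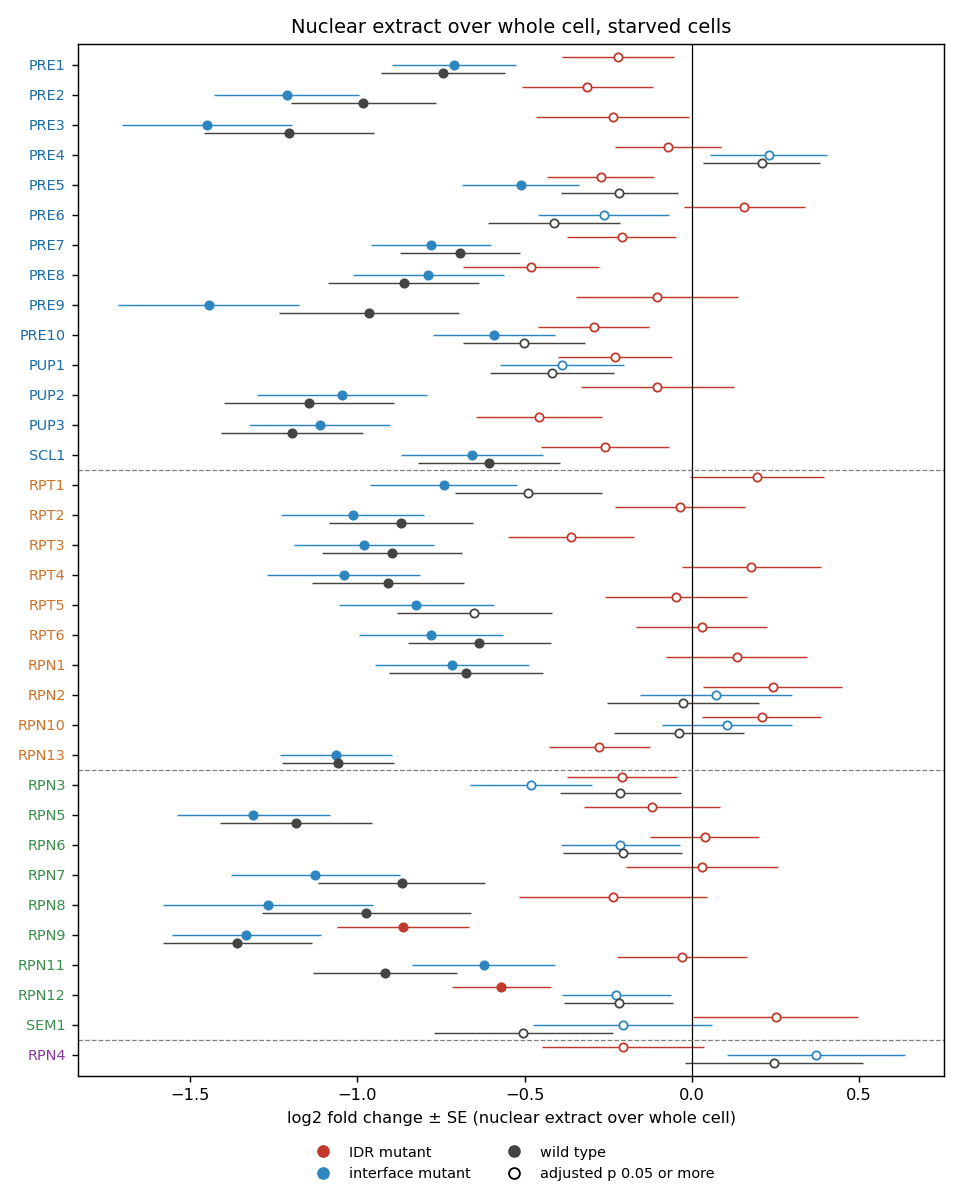
Log2 fold change ± standard error, nuclear extract over whole cell, of each of the 34 genes in starved IDR mutant, interface mutant and wild type, with open points where the edgeR adjusted p was 0.05 or more. The median subunit lies at -0.12 in the IDR mutant, -0.78 in the interface mutant and -0.69 in wild type, and RPN4, PRE4, RPN2 and RPN10 lie near or above 0 in the interface mutant and wild type.

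Whether the distribution between fractions differed between strains was tested in a comparison added after seeing the data. IDR mutant minus wild type called 0 of the 34 genes by edgeR, 14 at an unadjusted p under 0.05 (all higher) and 7 by DESeq2 (all higher). With a replicate block edgeR called 10, for which the share of all genes is not given here. Of all genes, 1.4% passed by edgeR (0.303% higher and 1.09% lower), 11.4% were higher and 13.7% lower at the unadjusted p, and 4.57% were higher and 6.11% lower by DESeq2. The lowest edgeR adjusted p was 0.0823, for RPT4, at 1.09 ± 0.31, against 0.72 without the 3 libraries nearer the other mutant. Without nuclear IDR mutant replicate 3, the IDR mutant library that did not lie nearer the other mutant, 10 passed, all higher, beside 9.56% of all genes higher. Without the 3 libraries nearer the other mutant, which leaves 1 nuclear library in each mutant, the subunit median was 0.28, against 0.60 with them. Interface mutant minus wild type called 0 by edgeR, 0 at an unadjusted p under 0.05 and 0 by DESeq2, beside 0%, 2.98% and 0% of all genes. Between nuclear extracts, IDR mutant over wild type called 0 by edgeR, 2 at an unadjusted p under 0.05 and 0 by DESeq2, with subunit values from -0.10 (PRE6) to 0.66 (PRE8). Interface mutant over wild type called 0 by edgeR, 0 at an unadjusted p under 0.05 and 0 by DESeq2, from -0.21 (PRE6) to 0.49 (RPN11), and each of the 2 comparisons called 0% of all genes by edgeR. At the unadjusted p they called 4.24% and 2.91% of all genes. In each of these 2 comparisons DESeq2 gave an adjusted p to only 328 genes, 5 of the 34 among them. It could not call the other members, so its count of 0 does not show that they were alike. Without the 3 libraries nearer the other mutant, the subunit medians of these 2 comparisons were 0.062 and 0.127, against 0.226 and 0.135 with them. The starved whole cell difference between IDR mutant and wild type in RPT4 (-0.80) stood beside 0.32 ± 0.26 in nuclear extracts (edgeR adjusted p = 0.861), with 428, 484 and 317 CPM in the IDR mutant and 373 and 304 in wild type. The 2 higher IDR mutant levels are those of the libraries nearer the other mutant, and replicate 3 lay within the wild type range. Without the 3 doubted libraries the nuclear value of RPT4 was -0.01, with replicate 3 the only IDR mutant library.

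The subunit genes with and without the PACE letters overlapped in every comparison. In starvation the median of the 27 subunits with PACE and of the 6 without was -0.37 and -0.32 in the IDR mutant, 0.38 and 0.02 in interface mutant cells and -0.18 and -0.61 in wild type. Genes with PACE were all 12 subunits that rose in the interface mutant, the 2 that rose in the IDR mutant and the 7 that rose in wild type. They were also 2 of the 4 that fell in the interface mutant and 10 of the 12 that fell in each of the IDR mutant and wild type, with 27 of all 33 having PACE. RNA profiles over the 12 whole cell libraries were compared with the mean centred log2 CPM of the 33 subunits by Pearson correlation, as a description over points that share libraries. RPT2 and RPT5 were nearest among the members (0.947 and 0.935), and RPN2 (-0.549) and RPN4 (-0.581) were farthest. Without unstressed wild type replicate 1 RPT2 and RPT5 stayed nearest (0.976 and 0.954). RPN4 (-0.540) and PRE8 (-0.408) were then farthest, with RPN2 at -0.344. Outside the set the 10 nearest genes, by the same measure, were CHO1, STE4, RRP46, RPL43B, TMA19, TDA2, SRB6, YRB1, GAR1 and RUB1 (0.967 to 0.981, and 0.927 to 0.974 without unstressed wild type replicate 1). Without that library LOG1, SUI3, YGL204C and RHO1 took the places of TMA19, TDA2, SRB6 and RUB1. None of the 10 had the PACE letters. The value of RPL43B is uncertain, since it shares reads with its near-identical copy RPL43A, which the counting command in the file headers splits.

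Among genes that work with the proteasome, the 10 assembly chaperones split under starvation, with 4 higher and 3 lower in the IDR mutant, 3 higher and 3 lower in the interface mutant and 4 higher and 5 lower in wild type. Starvation counts of this list and those below are to be read beside the shares of all genes that rose and fell, given above by strain. They do not by themselves set a list apart from other genes. Their median log2 changes were -0.14 in the IDR mutant, -0.05 in the interface mutant and -0.21 in wild type, beside medians of -0.05, -0.05 and -0.05 over all genes. RPN14, a chaperone of the base, rose in all 3 strains (1.10, 1.00 and 1.09, log2), and POC4, a chaperone of the core, fell (-1.51, -1.27 and -2.02). Of 10 activators and associated factors, 4 rose and 2 fell in the IDR mutant, 5 rose and 2 fell in the interface mutant and 3 rose and 2 fell in wild type, with medians of 0.03, 0.34 and 0.28. SPG5, needed to maintain the proteasome in stationary phase, rose by 3.91 ± 0.31 in the IDR mutant, 3.33 ± 0.30 in the interface mutant and 1.71 ± 0.28 in wild type. BLM10, an activator that caps the core, rose by 0.55 ± 0.16, 1.03 ± 0.16 and 1.44 ± 0.16 in the same strains. The IDR mutant held more SPG5 (1.57 ± 0.28) and less BLM10 (-0.84 ± 0.16) than wild type when starved (edgeR adjusted p = 0.00336 and 0.00434). CIC1 and PTH2 fell in all 3 strains, CIC1, which also acts in ribosome assembly, to -3.32 in the IDR mutant, -2.36 in the interface mutant and -2.85 in wild type (log2 change).

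Of 27 genes of ubiquitin supply, conjugation and shuttling, 11 rose and 7 fell in the IDR mutant, 10 rose and 7 fell in the interface mutant and 13 rose and 6 fell in wild type, with medians of 0.10, 0.31 and 0.42. DOA4, a deubiquitinase that recycles ubiquitin at endosomes, rose by 4.82 ± 0.16 in the IDR mutant, 5.12 ± 0.16 in the interface mutant and 4.72 ± 0.16 in wild type, and DDI1, a shuttle factor, by 2.51 ± 0.13, 2.90 ± 0.13 and 2.47 ± 0.13 (edgeR adjusted p at or below 5.5e-07). When starved, the IDR mutant held more UBI4 (1.06 ± 0.16), the stress-induced polyubiquitin gene, and more UBC5 (1.21 ± 0.16), a ubiquitin-conjugating enzyme, than wild type (edgeR adjusted p = 0.00164 and 0.000818). The UBI4 value is uncertain, since its repeated ubiquitin sequence is shared with other ubiquitin genes. The file headers name a split of multimapping reads, which the whole-number counts do not show. IDR mutant over wild type, starved, 8 of these 53 genes were higher (2 chaperones, 1 associated factor and 5 ubiquitin genes) and 7 were lower (1, 2 and 2 of the same lists and 2 regulators), beside the 15.9% of all genes higher and 13.3% lower. Of the 6 regulators of RPN4 transcription or Rpn4 turnover, YAP1 rose in all 3 strains (log2 changes of 1.67, 1.86 and 1.74 in the IDR mutant, the interface mutant and wild type). So did HSF1 (1.01, 0.79 and 1.33) and UBR2, the ubiquitin ligase that marks Rpn4 (0.70, 0.82 and 1.59). MUB1, its partner, fell in all 3 (-0.98, -0.81 and -0.55). In nuclear extracts 2 of the 6, the transcription factors PDR1 and HSF1, were higher than in whole cells. This held in the interface mutant (0.98 ± 0.32 and 0.60 ± 0.17) and in wild type (1.03 ± 0.32 and 0.54 ± 0.17). The IDR mutant values of PDR1 and HSF1, 0.52 ± 0.30 and 0.11 ± 0.15, did not pass. Without the 3 nuclear libraries nearer the other mutant, which leaves 1 in each mutant, PDR1 and HSF1 stood at 0.35 and 0.10 in the IDR mutant. They stood at 1.43 and 0.70 in interface mutant cells and at 1.03 and 0.53 in wild type. Assembly chaperones were lower in the extracts for 1, 5 and 5 of 10 genes in the IDR mutant, the interface mutant and wild type, associated factors for 2, 5 and 3 of 10, and ubiquitin genes for 2, 12 and 9 of 27. The shares of all genes higher and lower in the extracts, given above by strain, are the background for these counts.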

How the data were processed

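Poly(A) RNA of 21 yeast libraries was captured on oligo(dT) beads, per the labels' protocols. The deposited values are raw read counts per gene made by the authors with featureCounts 2.0.1 on the R64-2-1 annotation, per the file headers. The headers give reverse-stranded counting with multimapping reads split as fractions. Every value given is a whole number, so the values themselves do not show such a split. The submitters' processing notes also name cutadapt and TopHat2 (versions not given in the sources used here).

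Groups came from the labels. Genes were kept by edgeR's filterByExpr with a minimum count of 10, scaled by TMM factors and tested with edgeR's quasi-likelihood test (edgeR 4.0.16, R 4.3.3) with Benjamini-Hochberg adjustment over all genes tested, at an adjusted p under 0.05, in 3 fits: whole cells (5853 genes), starved cells of both fractions (5944) and nuclear extracts (6086). Levels, motifs and summaries were computed in Python 3.11.15 with pandas 2.3.3. Nuclear libraries under 100000 counts were left out. Of 6600 yeast features, 5917 matched RefSeq. Scripts were tested on simulated counts with known changes. Of genes given a log2 change of 1 in size, 25% (IDR mutant by starvation interaction) to 54% (starved IDR mutant over wild type) were called. At a change of 2 it was 84% to 99%. A gene that did not pass may therefore still differ.

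Beside RPN4, the text names in each comparison the 3 called members with the largest rises and the 3 with the largest falls and the extremes of each class, then up to 3 called genes of each pathway list by adjusted p, and the 10 genes most like the subunits in profile. The other members are given by class, so that each of the 34 is accounted for. Genes outside the rule, named for what they show (RPN14, HSF1, the repeated genes of a later comparison), were chosen after their values were seen. The members and lists were chosen with earlier results of these data known. The alternatives were other scalings, no filter, DESeq2 1.42.0, fits of the compared groups alone, a replicate block, each library left out, the shallow libraries kept and 3 doubted libraries left out. The last of these was chosen after seeing the data. Same-numbered libraries did not deviate together throughout (correlations of -0.43 to 0.33 in whole cells and -0.23 to 0.56 in nuclear extracts), so the numbers were not used as pairs.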

Additional observations from a re-analysis of the deposited data

Results flagged for a closer look

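All of these results are differences between the starvation response of the IDR mutant and that of wild type in whole cells, tested as an interaction with edgeR's quasi-likelihood test, with values in log2 units (IDR mutant minus wild type). Among proteasome genes, PRE6 stood at -0.86 (adjusted p = 0.0121) and RPT4 at -0.72 (adjusted p = 0.0309). Among assembly chaperones, HSM3, which holds the ATPase Rpt1, stood at 1.07 (adjusted p = 0.0117), NAS6, which holds Rpt3, at 1.22 (adjusted p = 0.0459) and PBA1, a chaperone of the core, at -1.02 (adjusted p = 0.0257). Among activators and associated factors, SPG5 stood at 2.21 (adjusted p = 0.0106) and BLM10 at -0.89 (adjusted p = 0.0351). Among ubiquitin genes, UBC5 stood at 1.28 (adjusted p = 0.01), UBI4 at 1.02 (adjusted p = 0.0218) and HRD1, a ubiquitin ligase of the endoplasmic reticulum, at 0.85 (adjusted p = 0.0395). UBR2 stood at -0.89 (adjusted p = 0.0499). Of all genes tested, 11.7% passed in this comparison. Passing were 2 of the 34 proteasome genes. Higher and lower were 2 and 1 of 10 chaperones, 1 and 1 of 10 associated factors, 3 and 0 of 27 ubiquitin genes and 0 and 1 of 6 regulators. The comparison uses unstressed wild type replicate 1, which stood apart. The PRE6 and RPT4 calls were each lost in 6 of 8 fits that left out 1 library.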

How the results depend on the processing

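Counts below are of the 34 genes and show how the calls move with the setting. The share of all genes called moves with the setting too, and stands beside a count only in the passages above. These counts alone are therefore not a result about the proteasome genes. With the compared groups fitted alone, starvation called 24 in the IDR mutant and 7 in wild type, IDR mutant over interface mutant called 3 unstressed and 19 starved, IDR mutant over wild type called 26 starved, and nuclear extract over whole cell called 12 in the interface mutant and 1 in the IDR mutant. DESeq2 called 6 and 1 in the IDR and interface mutant interactions with starvation, 8 and 5 in the IDR and interface mutant over wild type unstressed, 3 in the interface mutant over wild type starved and 7 in the IDR mutant interaction with fraction. With the shallow nuclear libraries kept, nuclear extract over whole cell called 1 in the IDR mutant and 13 in wild type. With the 3 doubted libraries left out, which leaves 1 nuclear library in each mutant, RPN4 in that comparison stood at 0.17 in the IDR mutant. The replicate block gave 10 in the IDR mutant interaction with fraction, 3 in its interaction with starvation and 15, 17 and 20 in starvation of the IDR mutant, the interface mutant and wild type. With 1 library left out at a time, the lone library of a group being taken to vary like the others, starvation called 10 to 11 in IDR mutant cells, 11 to 14 in interface mutant cells and 15 to 30 in wild type. The interactions with starvation ran from 0 to 20 (IDR mutant) and 0 to 24 (interface mutant), unstressed IDR and interface mutant over wild type from 0 to 27 and 0 to 25, and unstressed IDR over interface mutant stayed at 0. Starved IDR mutant over wild type ran from 4 to 5 and over interface mutant from 1 to 5. Nuclear extract over whole cell ran from 0 to 2, 14 to 19 and 4 to 16 in the IDR mutant, the interface mutant and wild type, and the IDR mutant interaction with fraction from 0 to 10. RPN4 in the interface mutant interaction with fraction (0.13) ran from -0.051 without nuclear wild type replicate 1 to 0.33 without nuclear wild type replicate 2. The cause was not tested. Of the other settings, 83 counts were within 1.5 times the reported count and 17 were not. With 2 libraries in most groups, the spread between libraries limits what can be called.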
